A study of Homo sapiens with 6 samples.

Results

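Regions of open chromatin were read out around 10 genes whose products, carried by antigen-presenting or tumour cells, are seen by receptors on T cells or macrophages: CD80, CD86, CD274, PDCD1LG2, CD70, TNFSF9, ICOSLG, LGALS9, TNFRSF14 and CD47. Peaks of the 6 deposited lists that shared at least 1 bp were merged, and a merged region was taken as a member when it overlapped the RefSeq record of a listed gene or lay within 50 kb of either end. This gave 42 of the 75701 merged regions, 3 of them in the windows of both CD274 and PDCD1LG2, which are neighbours on chromosome 9. The lists came from ATAC-seq, in which the transposase Tn5 inserts adapters into accessible DNA, on ARP1, a human multiple myeloma (plasma cell cancer) line. Of the 6 libraries, 3 were from ARP1 carrying a KDM6A knockout and 3 from KDM6A wild-type ARP1, and the labels name no treatment for either. KDM6A is an enzyme that takes methyl groups off histone H3 at lysine 27. The labels number the libraries of each genotype as replicates without naming cultures or clones or the way the knockout was made. The tests therefore see only the spread among these libraries, which may be technical.

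T cells need a signal through CD28 or a related receptor beside the signal through the antigen receptor. CD80 and CD86 give it through CD28 and are also bound by the inhibitory receptor CTLA4, ICOSLG engages ICOS, and CD70 and TNFSF9 are ligands of the TNF family for CD27 and TNFRSF9. CD274 (PD-L1) and PDCD1LG2 (PD-L2) bind the inhibitory receptor PDCD1, LGALS9 encodes galectin-9, TNFRSF14 (HVEM) is bound by BTLA, CD160 and TNFSF14, and CD47 binds SIRPA on macrophages as a signal against engulfment. CD274 is known as a gene that interferon gamma switches on through the factor IRF1.

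Depth differed between the genotypes. Knockout lists held 33055 to 37314 peaks and wild-type lists 54443 to 56048, and the background pileup recovered from the deposited folds was 2.05 to 2.56 reads in the knockout and 3.11 to 3.77 in the wild type. The weakest peak of a list had a fold over background of 3.09 to 3.31 in the knockout and 2.72 to 2.92 in the wild type. Over all regions called in the 6 lists, the median fold was 8.70 to 9.83 in knockout libraries and 11.1 to 13.1 in wild-type libraries, so a lower knockout fold at one region does not by itself show a change there. Percentiles from the full lists, which differ in length, describe each list and are not set between genotypes. Calls and ranks are therefore also given from lists shortened to the same number of peaks. As a check of the cell type, the promoter windows of the plasma cell genes were called in all 6 lists for 5 of the 5 genes matched (SDC1, IRF4, PRDM1, XBP1 and CD38). Those of the matched T cell genes CD3D and CD2 and of the myeloid genes CD14 and CSF1R were called in none. In a bulk library fewer cells with an open site and a less open site in every cell cannot be told apart.

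Promoter sequences were at hand for 8 of the 10 genes, as windows from 250 bases before to 50 bases after the RefSeq start (GRCh38.p14). A window with a peak in all 6 lists was found for CD47, ICOSLG and TNFRSF14, that is for 3 of 8, beside 53.1% of the 15843 windows of protein-coding genes. The windows of CD274 and CD80 had a peak in all 3 wild-type lists and in 2 and 1 knockout lists. Of coding-gene windows with a peak in all wild-type lists, 6.13% were missed by at least 1 knockout list. LGALS9 had a peak in 2 wild-type lists and no knockout list. The windows of CD86 and TNFSF9 had none in any list.

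The upstream 250 bases are shown for 5 genes that cover this range, from an open start in every list to none. They are written in the direction of the gene and end at the base before its start. Positions are chr3:108091032-108091281 (minus strand) for CD47, chr9:5450292-5450541 (plus) for CD274, chr3:119559615-119559864 (minus) for CD80, chr3:122055112-122055361 (plus) for CD86 and chr19:6530776-6531025 (plus) for TNFSF9. Capitals mark matches on either strand to the NF-kB core (GGG, any 5 bases, CC), the interferon regulatory factor pair (GAAA, any 2 bases, GAAA), TTCNNNGAA (STAT) or TGANTCA (AP-1), and matches can overlap.
CD47: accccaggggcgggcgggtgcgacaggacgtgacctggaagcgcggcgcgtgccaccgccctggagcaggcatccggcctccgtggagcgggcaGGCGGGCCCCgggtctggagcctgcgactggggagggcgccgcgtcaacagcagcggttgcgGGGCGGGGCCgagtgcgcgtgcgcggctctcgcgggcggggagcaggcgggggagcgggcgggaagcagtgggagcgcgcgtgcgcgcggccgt
CD274: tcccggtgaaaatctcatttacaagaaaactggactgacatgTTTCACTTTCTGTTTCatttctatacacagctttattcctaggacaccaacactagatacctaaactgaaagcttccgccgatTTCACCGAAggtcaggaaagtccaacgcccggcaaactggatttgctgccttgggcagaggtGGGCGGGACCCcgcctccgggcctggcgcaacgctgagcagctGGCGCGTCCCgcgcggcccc
CD80: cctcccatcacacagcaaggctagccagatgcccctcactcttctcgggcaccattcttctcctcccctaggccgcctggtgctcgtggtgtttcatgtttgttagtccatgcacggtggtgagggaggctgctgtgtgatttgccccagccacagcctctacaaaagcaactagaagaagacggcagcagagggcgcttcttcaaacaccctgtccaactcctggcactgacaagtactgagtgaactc
CD86: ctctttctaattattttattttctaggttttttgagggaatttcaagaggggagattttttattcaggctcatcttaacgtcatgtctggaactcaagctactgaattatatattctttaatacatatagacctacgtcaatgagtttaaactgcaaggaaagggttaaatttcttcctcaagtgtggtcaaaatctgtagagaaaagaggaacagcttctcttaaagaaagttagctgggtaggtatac
TNFSF9: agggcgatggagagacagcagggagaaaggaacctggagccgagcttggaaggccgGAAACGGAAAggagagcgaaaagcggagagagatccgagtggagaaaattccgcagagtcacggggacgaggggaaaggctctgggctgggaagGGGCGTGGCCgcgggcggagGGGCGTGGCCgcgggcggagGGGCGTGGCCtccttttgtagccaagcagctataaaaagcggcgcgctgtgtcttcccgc

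CD274 carried 2 overlapping matches to the interferon regulatory factor pair, at positions −208 to −199 and −202 to −193 from its start, and the only match to TTCNNNGAA in the 8 windows, at −125 to −117. The interferon regulatory factor pair was found in 3 of the 8 windows (CD274, TNFSF9 and LGALS9) and in 3.57% of all 35116 promoter windows of the table. The NF-kB core was in 6 of 8 windows, but also in 58.7% of all, and TTCNNNGAA was in 7.66% of all. The GC box GGGCGG was in 4 of 8 and 45.0% of all, some of its matches lying inside those to the NF-kB core. TGANTCA (7.71% of all) and CCAAT (34.6% of all) were in none of the 8. All 8 are coding genes, and over the 15843 coding-gene windows the shares were 67.5% for the NF-kB core and 58.5% for the GC box. They were 3.17% for the interferon regulatory factor pair, 6.97% for TTCNNNGAA, 5.75% for TGANTCA and 36.4% for CCAAT. These are matches of letters only. CpG dinucleotides numbered 45 in the window of CD47, 42 in ICOSLG, 27 in TNFSF9, 22 in CD274, 12 in TNFRSF14, 7 in CD80, 3 in CD86 and 2 in LGALS9. Over coding genes the median was 28 in windows called in all 6 lists, 18 in those called in part of them and 7 in those called in none. TNFSF9 therefore had close to as many CpGs as the median called window and no peak, and TNFRSF14 had fewer and a peak in every list.

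Fewer of the 42 regions were called in the knockout, and the share with more wild-type than knockout calls was that of regions near other genes. Knockout libraries 1, 2 and 3 had 21, 23 and 22 of them and wild-type libraries 31, 30 and 28, with means of 22.0 ± 1.00 and 29.7 ± 1.53 (SD, n = 3). All 3 knockout libraries lay below all wild-type libraries. More wild-type than knockout lists held a peak at 22 of the 42 regions and more knockout than wild-type lists at 5. Of the merged regions near any protein-coding gene, 52.4% were called in more wild-type and 7.89% in more knockout lists. Every wild-type list held 23 of the regions, and 13 of those were in all 6 lists. The other 10 (43.5%) were missed by at least 1 knockout list, beside 36.5% near any coding gene. Only 1 of the 23, below CD47, had no peak in any knockout list, beside 15.2% near any coding gene, and that count ranged from 0 to 7 over other settings. It was 7 of 19 where peaks had to cover 50% of the region, beside 25.3% near any coding gene, and 2 of 22 at a fold of at least 4, beside 13.4%. The knockout lists had 14 regions in common, none of them without a wild-type peak (0.312% near any coding gene) and 1, at CD70, missed by any wild-type list (2.34%). With every list shortened to its 33055 strongest peaks, both genotypes had a mean of 19.7 member regions per library, a difference of 0.

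**Figure D1:**
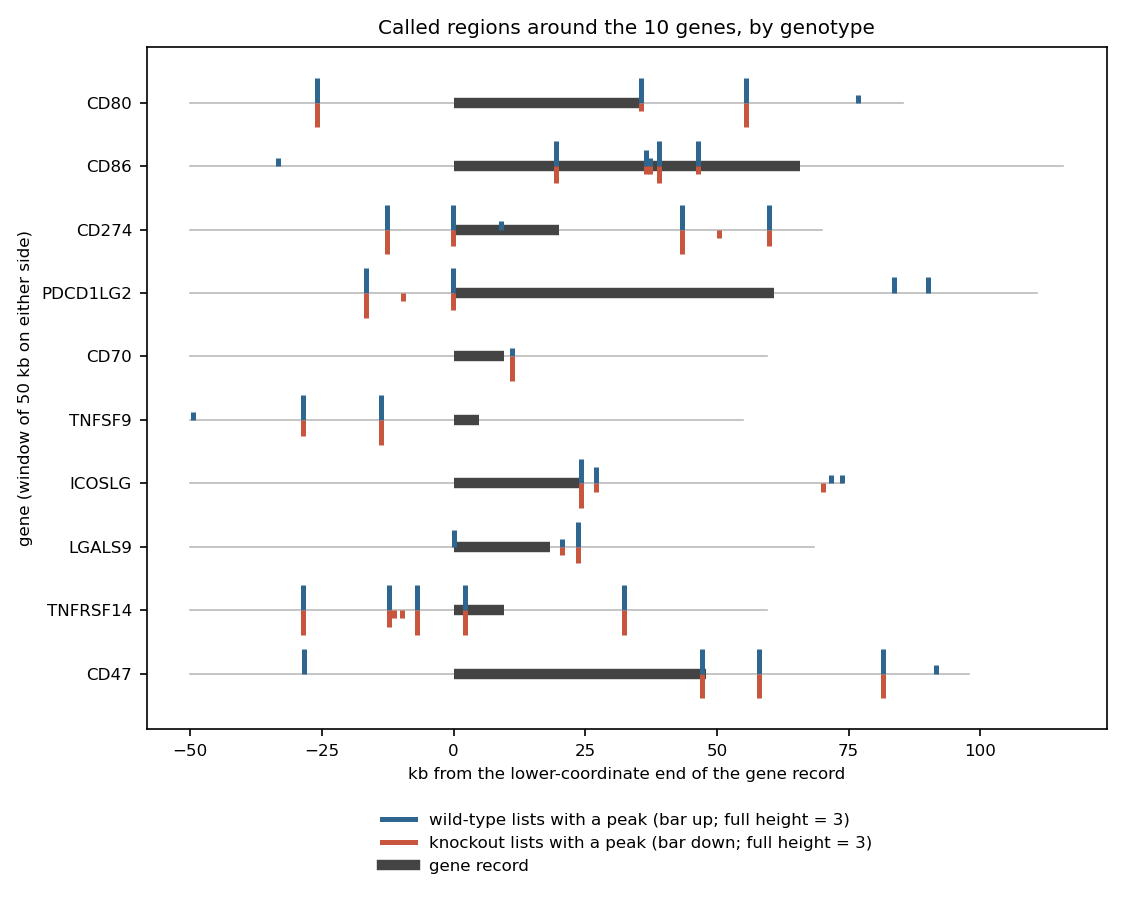
Each row is a gene with 50 kb on either side, the x axis gives kb from the lower-coordinate end of the gene record, and bars give the number of wild-type lists (up) and knockout lists (down) with a peak, at most 3 each. CD86 has 5 of its 6 regions inside the gene, and TNFRSF14 has bars of equal length on both sides at 4 regions. Only 1 region, below CD47, has a wild-type bar of full height and no knockout bar.

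Gene by gene, 2 of the 10 had fewer called regions in every knockout library than in every wild-type library. PDCD1LG2 had 2 regions in each knockout library and 4, 3 and 3 in the wild-type libraries. CD47 had 3 in each knockout library and 5, 4 and 4 in the wild type. For both, the exact permutation test (two-sided) gave p = 0.1, the lowest value open to 3 against 3, and an adjusted exact p of 0.342 over the 18933 coding genes with a called region. Of those genes 28.8% were lower without overlap and 0.407% higher, and 2 of 10 is below the first of these shares. No gene reached 0.05, adjusted or not, since 0.1 is the floor. The difference for PDCD1LG2 was 0 at equal list length and within 10 kb, and that for CD47 was −1.67 at equal list length and 0 within 10 kb. Which genes were lower without overlap depended on the setting. At a −log10 q of at least 5 they were CD80, CD86, CD274, PDCD1LG2 and CD47. At 50% coverage they were CD86, CD274, PDCD1LG2 and CD47, at equal list length CD47 alone, and within 10 kb none. No share over coding genes is at hand for these settings. In the full lists and windows of 50 kb, the counts of the other 8 genes overlapped between genotypes, with exact permutation p of 0.3 to 1. TNFRSF14 had 5, 5 and 6 regions in the knockout and 5 in each wild-type library. CD86 varied most, with 3, 4 and 0 regions in the knockout libraries, against 4, 5 and 4 in the wild type. Its difference of −2 was −0.833 without knockout library 3 (exact permutation p = 0.6) and −1 at equal list length (exact permutation p = 0.5). The CD86 difference was larger in other settings, at −3.33 for a −log10 q of at least 5, −4 at 50% coverage and −2.67 within 100 kb. In each of those the exact permutation p was 0.1, its floor.

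**Figure D2:**
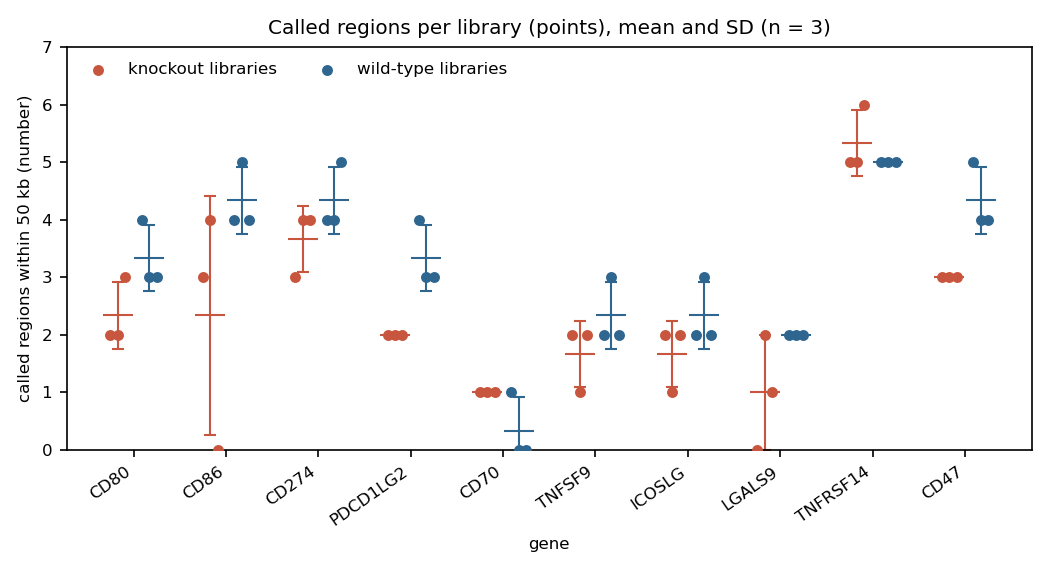
Points give the number of called regions within 50 kb of each gene (y axis) in each library, with the mean and SD of 3 libraries per genotype. The genotypes do not overlap for PDCD1LG2 and CD47, and knockout libraries of CD86 range from 0 to 4.

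CD80 (chromosome 3, 119524293 to 119559614, minus strand) had its start called in 3 wild-type lists and 1 knockout list, a gap that was smaller at equal list length. The region over its start, 119559309 to 119560440, had folds of 5.55, 8.26 and 4.61 in wild-type libraries 1 to 3 and of 4.21 in knockout library 3 only. Within the wild-type lists these peaks stood at percentiles 44.2, 59.7 and 30.4 of −log10 p. In lists of equal length 2 wild-type lists and 1 knockout list held it, and knockout library 3 (percentile 10.97) lay above wild-type library 1 (8.14) and below wild-type library 2 (33.6), so the genotypes overlapped. With peaks limited to a −log10 q of at least 5 the knockout peak was lost and the region was called in the wild type only. The stronger regions in the window lay at the starts of other genes. A region at the start of TIMMDC1 (119497446 to 119499405) had folds of 19.9, 22.6 and 15.4 in the knockout libraries, against 31.0, 36.7 and 28.9 in the wild type. At equal list length its percentiles were 87.8 to 93.7 in the knockout lists and 96.1 to 97.1 in the wild-type lists. The region at the start of ADPRH (119579185 to 119580522) had folds of 7.52, 8.52 and 7.30 in the knockout libraries, against 15.2, 16.3 and 12.6 in the wild type. A weak peak inside PLA1A was called in wild-type library 1 alone. The table of gene records used does not separate exons from introns, so positions inside genes are given as such.

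CD86 (chromosome 3, 122055362 to 122121136, plus strand) had no peak at its RefSeq start, and its accessible regions lay inside the gene, apart from a peak at the start of ILDR1 in wild-type library 2. Of the 5 regions within the record, 3 were called in all wild-type lists, and each of those 3 was called in 1 or 2 knockout lists. The region 19.5 kb from the start (122074316 to 122075264) had folds of 7.47, 7.53 and 6.50 in the wild type, at percentiles 60.9, 55.0 and 51.7. In knockout libraries 1 and 2 its folds were 3.91 and 4.26, at percentiles 5.88 and 12.0, and library 3 had no peak. The region 39.0 kb from the start (122093658 to 122095017) had, in the wild type, folds of 7.90, 5.59 and 6.29 and knockout folds of 3.31 and 3.93 in libraries 1 and 2, the lower at the weakest fold of its list. The region 46.4 kb from the start (122101122 to 122102243) had, in the wild type, folds of 5.77, 6.32 and 5.24 and a fold of 4.26 in knockout library 2 alone. All 3 regions had a peak in every wild-type list and none in knockout library 3. At equal list length the region 19.5 kb from the start was called in 3 wild-type lists, at percentiles 35.6, 25.8 and 18.1, and in knockout library 1 at 5.88. The other pair was then called in 2 wild-type lists each and in 1 and 0 knockout lists. Limiting peaks to a −log10 q of at least 5 left all 3 in the wild type only. Together with the CD80 start and the region below CD47 that made 5 of 22 member regions, beside 16.1% near any coding gene. Left out of this pattern were 2 smaller regions, 36.4 and 37.5 kb from the start, called in 1 knockout list each and in 2 and 1 wild-type lists.

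CD274 (chromosome 9, 5450542 to 5470554, plus strand) had its start called in all wild-type lists and weakly in the knockout. The region over the start, 5450006 to 5450992, had folds of 10.5, 12.2 and 7.54 in the wild type, from summit pileups of 48, 49 and 35 reads. In knockout libraries 2 and 3 the folds were 5.57 and 3.93, from pileups of 16 and 13 reads, and library 1 had no peak. In lists of equal length the peaks stood at percentiles 59.3, 59.1 and 31.5 in the wild type, against 22.97 and 4.85 in the knockout, so every knockout value lay below every wild-type value, and knockout library 1 still had none. The window with the interferon and STAT matches shown above lies within this region. A peak inside the gene, 9.1 kb from the start, was found in wild-type library 3 alone. The strongest region in the window was at the start of PLGRKT (5437157 to 5438761), with folds of 17.2, 20.7 and 19.4 in the knockout libraries, against 28.4, 37.4 and 27.5 in the wild type.

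PDCD1LG2 (chromosome 9, 5510531 to 5571282) shares with CD274 the long non-coding gene INCR1, whose record covers the regions between them. The region 5493091 to 5494788, between both genes and inside INCR1, was called in all 6 lists. Its folds were 8.43, 9.51 and 8.98 in the knockout libraries, against 11.7, 11.4 and 12.6 in the wild type. The region over the lower-coordinate end of PDCD1LG2, where the gene is known to start (5510153 to 5510840), was weak in both genotypes. Its folds were 4.51 and 4.21 in knockout libraries 1 and 3 and 4.27, 5.83 and 5.03 in the wild type. At equal list length it was called in knockout libraries 1 and 3 and wild-type library 2. The regions above the gene at 5593820 and 5600202 each had a peak in 2 wild-type lists and no knockout list, and at equal list length they were called in 0 and 1 wild-type lists. A peak at 5500761 was called in knockout library 2 alone.

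CD70 and TNFSF9, neighbouring genes of the TNF family on chromosome 19, held the member regions that were called or ranked most clearly higher in the knockout lists. CD70 (6581648 to 6591150) had a single region, 6592485 to 6593031, 1335 bp above the upper end of its record, where the gene is known to start. It was called in all 3 knockout lists with folds of 4.51, 4.92 and 4.49 and in wild-type library 1 with a fold of 4.06. All of these were weak, at percentiles 15.4 to 23.9. In lists of equal length it was called in 3 knockout and 0 wild-type lists, the 1 such region among the members, beside 3% near any coding gene. The full lists gave the same call without wild-type library 1, as they must, since no other wild-type list had a peak there.

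TNFSF9 (6531026 to 6535924, plus strand) had a strong region 14.8 kb before its start, at 6515731 to 6518591, outside any gene record. Its folds were 15.0, 21.3 and 15.7 in the knockout libraries, against 11.7, 12.2 and 10.9 in the wild type, with summit pileups of 49, 64 and 55 reads against 54, 49 and 51. The folds did not overlap between the genotypes and the pileups did. A region at the start of TUBB4A, 28.6 kb before TNFSF9, was weak in both genotypes, with folds of 4.51 and 4.49 in knockout libraries 1 and 3 and 3.42, 5.35 and 3.14 in the wild type. A peak inside DENND1C was called in wild-type library 2 alone.

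ICOSLG (chromosome 21, 44216981 to 44240943, minus strand) had an open start in both genotypes. The region 44240380 to 44241765 had folds of 8.43, 4.59 and 7.86 in the knockout libraries, against 7.90, 6.81 and 5.24 in the wild type, with means of 6.96 ± 2.07 and 6.65 ± 1.34 (SD, n = 3). The values overlapped, and knockout library 2 was the lowest of the 6, at percentile 17.3 of its list. A region 3.3 kb before the start was called in knockout library 3 and wild-type libraries 2 and 3 with folds of 4.40 to 5.10. Inside AIRE, 3 further regions had a peak in 1 list each.

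LGALS9 (chromosome 17, 27631188 to 27649560, plus strand) had little accessible DNA. The region over its start, 27631002 to 27631635, had folds of 3.63 and 3.77 in wild-type libraries 1 and 3 and no other peak. The weakest peaks of the knockout lists had folds of 3.09 to 3.31, and at equal list length the region was called in no list. The strongest region, 23.6 kb from the start inside the pseudogene NOS2P1 (27654217 to 27655260), had folds of 7.21 and 6.17 in knockout libraries 2 and 3 and 4.06, 7.05 and 5.03 in the wild type. Its values overlapped between the genotypes. Another region in NOS2P1 had a peak in knockout library 2 and wild-type library 2, with folds of 4.92 and 3.40.

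TNFRSF14 (chromosome 1, 2554234 to 2563829, plus strand) had the most regions called in all 6 lists, 4 of 7. The region over its start, 2555262 to 2557620, also covers the start of the antisense gene TNFRSF14-AS1. Its folds were 8.73, 5.90 and 7.30 in the knockout libraries, against 8.33, 10.7 and 9.43 in the wild type, which overlapped. A broad region of 4518 bp, 9.95 kb before the start (2544995 to 2549512), had folds of 14.7, 17.4 and 15.2 in the knockout libraries, against 17.3, 18.7 and 16.3 in the wild type. At equal list length its percentiles were 85.7 to 87.3 in the knockout lists and 80.3 to 84.2 in the wild-type lists. Regions at the starts of the neighbours PANK4 and PRXL2B were also called in all 6. A region 14.6 kb before the start was called in 2 knockout and 3 wild-type lists, and peaks at 2542733 and 2544326 in 1 knockout list each.

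CD47 (chromosome 3, 108043091 to 108091031, minus strand) had the widest open start of the 10 genes and the only region called in all wild-type and no knockout lists. The region over the start, 108088392 to 108091939, spans 3548 bp and had folds of 16.3, 15.7 and 13.7 in the knockout libraries, against 12.4, 13.1 and 18.2 in the wild type. These overlapped, with means of 15.2 ± 1.32 and 14.6 ± 3.18 (SD, n = 3). The region 28.0 kb beyond the lower end of the record, which is the gene's far end (108014354 to 108015074, inside the long non-coding gene LOC124906266), had wild-type folds of 5.98, 6.56 and 7.96 and no peak in any knockout list. Its wild-type percentiles were 48.9, 47.6 and 62.2, and its summit pileups 27, 26 and 37 reads, beside a weakest knockout peak of 9 to 10 reads. It was also called in all wild-type and no knockout lists at equal list length. That was 1 of 16 member regions called in every wild-type list, beside 5.77% near any coding gene. Leaving out a library cannot change such a call, so it adds no check.

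Before the start of CD47, 2 more regions were called in all 6 lists with lower folds in the knockout lists. The region 10.2 kb before it (108100396 to 108101851) had folds of 9.93, 7.54 and 7.02 in the knockout libraries, against 12.0, 13.9 and 16.8 in the wild type. Its percentiles at equal list length overlapped, at 69.1, 46.7 and 52.1 in the knockout libraries, against 67.1, 66.1 and 81.8 in the wild type (exact permutation p = 0.3). The region 33.7 kb before it, in the long non-coding gene LINC01215 (108124121 to 108125189), had folds of 5.42, 3.93 and 3.65 in the knockout libraries, against 10.3, 8.02 and 8.17 in the wild type. In lists of equal length it was called in knockout library 1, at percentile 29.9, and in all wild-type lists, at 57.9, 31.2 and 38.0. A weak peak further out in LINC01215 was called in wild-type library 1 alone.

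**Figure D3:**
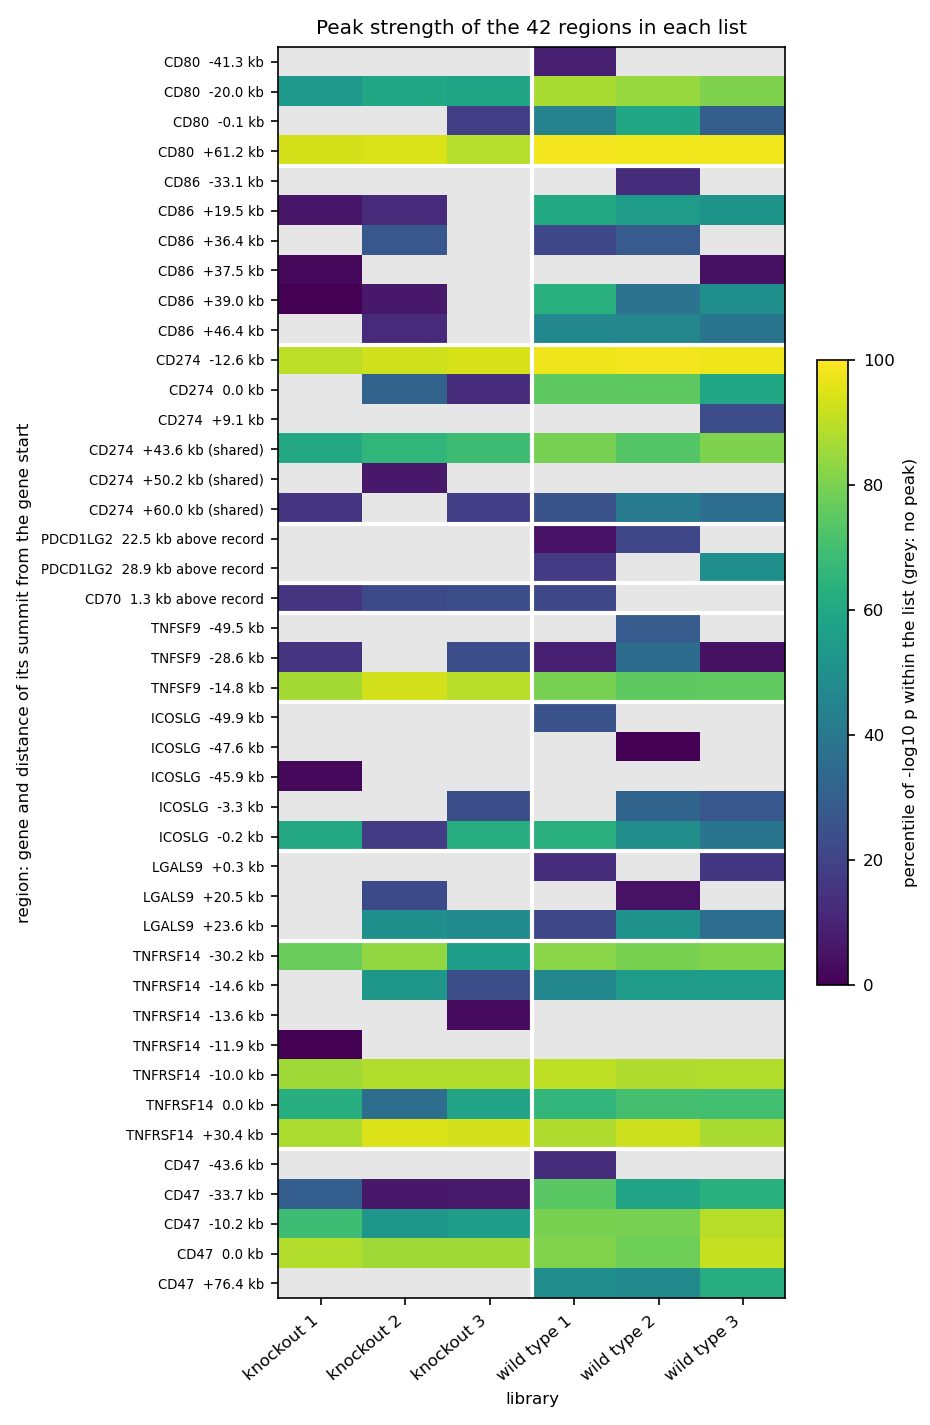
Rows are the 42 regions by gene and by distance from the gene start (or from the gene record for PDCD1LG2 and CD70), columns are the 6 libraries, and colour gives the percentile of −log10 p within each list, grey meaning no peak. The lists differ in length, so colours describe each list. The region 76.4 kb from the start of CD47 is grey in all 3 knockout columns, and the CD86 regions 19.5, 39.0 and 46.4 kb from the start are dark or grey there.

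Ranks can be set between genotypes only where the lists have the same length. In the lists of 33055 peaks, 11 member regions had a peak in all 6. Every knockout list ranked below every wild-type list at 3 of them and above at 2, and 6 overlapped. Over all 20727 such regions 17.2% ranked below and 18.5% above, so the counts among the members stand as a description. The median knockout minus wild-type percentile was 0.155 over the members and −0.067 over all regions. The 3 lower regions were the starts of neighbouring genes. ADPRH, near CD80, stood at percentiles 53.3, 54.8 and 54.5 in the knockout libraries, against 79.1, 74.3 and 67.1 in the wild type, differing by −19.3. TIMMDC1, near CD80, differed by −4.95 and PLGRKT, near CD274, by −4.43.

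The 2 higher regions lay before TNFSF9 and TNFRSF14. The region 14.8 kb before TNFSF9 stood at percentiles 86.4, 92.4 and 88.3 in the knockout libraries, against 66.1, 59.1 and 58.4 in the wild type, differing by 27.8, and 2.91% of all regions had a larger upward difference. The broad region 9.95 kb before TNFRSF14 differed by 4.98. At each of these 5 regions the exact permutation p (two-sided) was 0.1, the lowest possible, and the adjusted exact p was 0.281 over all 20727 regions. The start of CD47 stood at 85.6 ± 2.63 in the knockout libraries, against 72.5 ± 11.2 in the wild type, which overlapped, and the start of TNFRSF14 at 48.2 ± 18.1 and 48.0 ± 3.95 (SD, n = 3). Without knockout library 1, a total of 5 regions ranked below, the region over the CD274 start and the one 10.2 kb before CD47 being added. In that setting 3 ranked above, the region at the start of PRXL2B being added. Leaving out a library makes separation easier to meet, and the CD274 start could enter only because knockout library 1 had no peak there. No share over all regions is at hand for that setting.

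**Figure D4:**
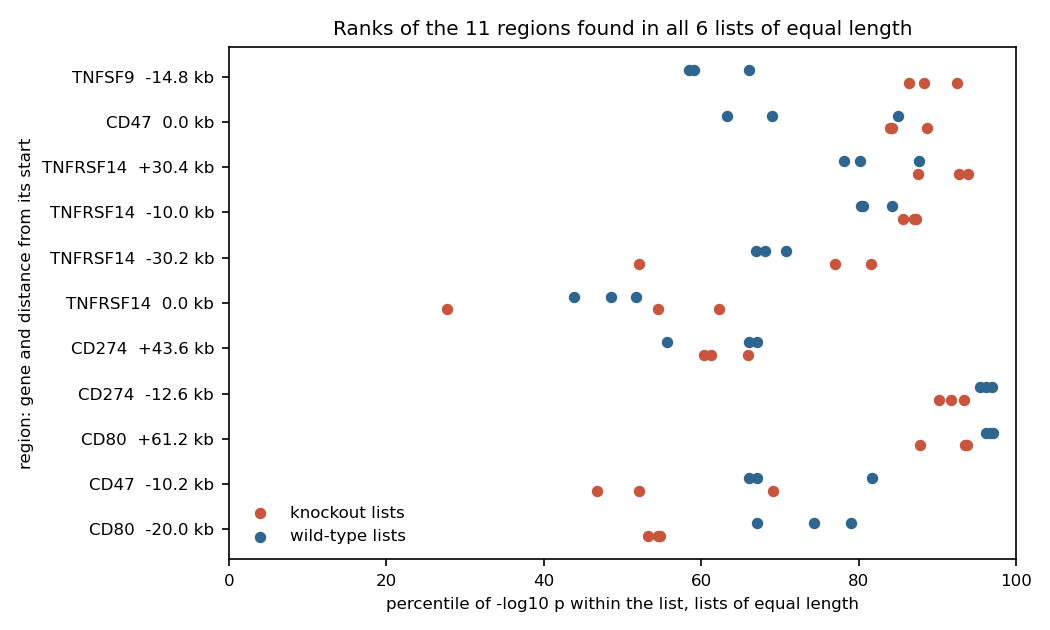
Points give the percentile of −log10 p (x axis) in each of 3 knockout and 3 wild-type lists of equal length, for the 11 regions with a peak in all 6, ordered by the difference between genotypes. The knockout points lie to the right of all wild-type points at the region 14.8 kb before TNFSF9 and to the left at the region 20.04 kb before CD80, the start of ADPRH.

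Other ligands of the same families and the matching receptors were counted from 2 lists that share no gene with the 10. Of regions called in every wild-type list near 14 other ligand genes (CD276, VTCN1, VSIR, HHLA2, NCR3LG1, TNFSF4, TNFSF8, TNFSF14, TNFSF15, TNFSF18, CD40, CD58, PVR and NECTIN2) 14 of 53 had no knockout peak, which is 26.4%, beside 15.2% near any coding gene. At equal list length this was 4 of 31 (12.9%), beside 5.77%. With a library left out, which makes the rule easier to meet, it was 14 to 17 regions. No share near coding genes is at hand for that setting. The counts of called regions were lower in every knockout than in every wild-type library for 7 of the 14 genes, beside 28.8% of coding genes, and higher for none. HHLA2, a B7 family gene that lies beyond CD47 on the same arm of chromosome 3, had 4, 5 and 4 regions in the knockout libraries, against 10, 11 and 11 in the wild type, and 5 of its regions were called in the wild type only. The region 108295923 to 108296516 overlaps a promoter window of HHLA2 and ends before the gene record, which begins at 108296548, with wild-type folds of 8.97, 8.51 and 6.50. Another, 108301753 to 108302478, lies over the record and also overlaps a promoter window of HHLA2, with wild-type folds of 4.70, 3.40 and 3.56. TNFSF18, the ligand of GITR, had a region over its record at 173038621 to 173039528 on chromosome 1 with wild-type folds of 6.83, 7.05 and 8.17. TNFSF8, the ligand of CD30, had one at 114898640 to 114899203 on chromosome 9 with folds of 6.19, 7.53 and 5.66. In TNFSF4, the ligand of OX40, the region 173276557 to 173277554 had folds of 5.13, 6.56 and 7.54. The HHLA2 region at 108295923 and these regions of TNFSF18, TNFSF8 and TNFSF4 had no knockout peak. They were the 4 that kept this call at equal list length. Near NCR3LG1, a ligand of the natural killer cell receptor NKp30, the region 17383429 to 17384493 on chromosome 11 had folds of 5.98, 6.08 and 4.40 in the wild type and no peak in a knockout list.

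Of such regions near 10 receptor genes (CD28, CTLA4, ICOS, PDCD1, CD27, TNFRSF9, HAVCR2, BTLA, CD160 and SIRPA) 3 of 32 had no knockout peak (9.38%), beside 15.2% near any coding gene. At equal list length this was 2 of 23, beside 5.77%, the regions being the BTLA region below and one near CD160, so those in CD28 and near PDCD1 did not keep the call. Without knockout library 2 this was 9 of 32. It was 6 of 36, 6 of 38 and 4 of 33 without wild-type library 1, 2 or 3 and 5 of 32 without knockout library 3. Leaving out a library makes the rule easier to meet. No share near coding genes is at hand for these counts, and the 15.2% does not apply to them. CD28, a receptor that plasma cells themselves can carry, had its promoter window called in all 6 lists, and 1 region inside the gene, 203708611 to 203709509, was called in the wild type only, with folds of 4.48, 5.10 and 3.98. Near BTLA the wild-type lists had folds of 6.19, 6.81 and 8.17 at 112437021 to 112437860 and the knockout lists no peak. Near PDCD1 the wild-type lists gave folds of 4.06, 4.13 and 3.14 at 241804626 to 241805238 and the knockout lists gave none. SIRPA had 1 region, called in 2 wild-type lists.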

How the data were processed

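The members and gene lists were chosen with earlier results of these data known. Each library has its own narrow-peak list, so peaks were not called on pooled samples. Trimmomatic, FastQC, MultiQC, Bowtie2 and MACS2 2.1.2 and the build GRCh38 are named in the submitters' processing notes, without roles or settings, and read shifting and duplicate removal are steps not given in the sources used here. The authors deposited for each peak a score, a fold over background (a ratio), −log10 of the p-value and −log10 of the q-value, and the deposited score equals the −log10 q-value times 10, cut to a whole number.

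With Python 3.11.15 and pandas 2.3.3, the mitochondrial peak (1 per list) was left out, peaks sharing 1 bp were merged, and each region took the strongest peak of each list. A percentile is the share of a list's peaks at or below that −log10 p. All deposited folds under 100 were whole multiples of 1 step per library (within 0.01 of it), the form that a ratio of pileup + 1 to background + 1 takes, and pileups were recovered from it. Genes came from a RefSeq table of GRCh38.p14, with 20037 protein-coding genes, promoters from its sequence table, and all 10 genes and all 38 genes of the other lists matched. Exact two-sided permutation tests used the 20 labellings of the 6 libraries, with Benjamini-Hochberg adjustment over all genes or regions. All 10 genes were named by rule, and of other ligands and receptors those with a region called in 1 genotype only, at most 5 a list by percentile, with CD28 and SIRPA. The code was tested on simulated lists. Alternatives were lists of 33055 peaks, a −log10 q of at least 5, windows of 10 and 100 kb, coverage of 50% of the region, a replicate block and leaving out each library. A fold of at least 4 was added after seeing the data. No genome sequence was used beyond the promoter table.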

Additional observations from a re-analysis of the deposited data

How the results depend on the processing

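The number of member regions called in all wild-type and no knockout lists was 1. It was 5 at a −log10 q of at least 5, 0 within 10 kb, 2 within 100 kb, 7 where peaks had to cover 50% of a region and 2 at a fold of at least 4 (added after seeing the data), and it ranged from 1 to 3 with a library left out. At 50% coverage 7 of 19 were so called, beside 25.3% near any coding gene, the added ones being the 3 CD86 regions, the CD274 start and 2 further CD47 regions (its start and the one 33.7 kb before it); the cause was not tested. At a fold of at least 4 it was 2 of 22, beside 13.4%. It was 2 without knockout library 2 (adding the CD86 region 46.4 kb from the start), without knockout library 3 (the CD80 start) or without wild-type library 3 (a PDCD1LG2 region), and 3 without wild-type library 2 (a PDCD1LG2 region and the LGALS9 start). Leaving out a library makes the rule easier to meet, and no share near coding genes is at hand for these counts. The converse count was 0, 1 at equal list length (the CD70 region), and from 0 to 1 with a library left out. The knockout minus wild-type difference in called regions per library was −7.67, 0 at equal list length, −9 at a −log10 q of at least 5, −3.33 within 10 kb, −13.7 within 100 kb and −14 at 50% coverage. The genes' own differences kept their direction or were 0 in 123 of 130 alternatives. For each of the 10 genes, 1 of these alternatives was the replicate block. It leaves the difference as it is and so could not reverse it. For PDCD1LG2 (−1.33) the difference was 0 at equal list length and within 10 kb, and for CD47 (−1.33) it was 0 within 10 kb. They reversed at equal list length for TNFSF9 (0.667), ICOSLG (1) and LGALS9 (0.667), within 100 kb for CD70 (−0.333) and TNFRSF14 (−1), and for TNFRSF14 at a −log10 q of at least 5 (−0.333) and at a fold of at least 4 (−0.333). Regions ranked lower in every knockout list at equal length numbered 3 to 5 with a library left out, and higher 2 to 3. Separation of the ranks is also easier to meet with a library left out. Lists of 16527 peaks and ranks by fold gave 3 and 2.

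With the replicate block, a sign-flip test within replicate numbers, PDCD1LG2 (−1.33), CD47 (−1.33) and CD86 (−2) had a sign-flip p of 0.25, the smallest it allows. That floor and the 0.1 of the exact permutation test both lie above 0.05, so no call could change and the block adds no check. The CD86 difference was −0.833 without knockout library 3 and −1 at equal list length. It was −3.33 at a −log10 q of at least 5 and −4 at 50% coverage. Deviations from the group means over the 23589 regions called in all 6 lists correlated at −0.021, 0.015 and −0.184 between libraries of the same number. Between libraries of different numbers the correlations ran from −0.115 to 0.127. With 3 libraries per genotype these values cannot tell whether libraries of the same number share a culture or batch. The weakest listed peak had 9 to 10 reads at its summit in knockout libraries and 11 to 12 in wild-type libraries, and regions below these were not detectable here.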
